A study of Drosophila melanogaster with 12 samples.

Results

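The mRNA levels of 10 genes that carry the Drosophila oocyte through meiotic maturation and egg activation were measured across ovary libraries. They were png, plu and gnu, which encode the subunits of the PNG kinase complex, Mos, the meiotic Cdc25 gene twe, the calcineurin regulator sra, the B-type cyclin genes CycB and CycB3, and polo with the gene of its inhibitor, mtrm. The genes were listed by name for these known roles, and all 10 were found by FlyBase identifier among the 17023 gene identifiers counted. All 10 passed the filter on low counts that left 10105 genes for testing.

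A fly oocyte arrests in meiotic prophase, matures when Cdk1 with a B-type cyclin becomes active, arrests again in metaphase and completes meiosis only when ovulation activates the egg. The Cdc25 phosphatase Twine activates Cdk1 at maturation, Matrimony holds Polo kinase in check until then, and at activation a calcium signal acts through calcineurin with its regulator Sarah. The PNG kinase then changes the translation of stored maternal mRNAs, which nurse cells make during oogenesis and pass to the oocyte.

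The study sequenced poly(A) RNA of ovaries in 12 libraries, in 6 sets of 2. Of these, 3 sets were labelled as a germline knockdown (GKD): SETDB1 GKD, whose titles read EggRNAi, wde GKD, whose titles read Wde, and Nup154 GKD, whose titles read Nup154RNAi and which the series used as a control for development. The gene egg encodes SETDB1, which methylates histone H3 at lysine 9, Wde works as its cofactor, and Nup154 is part of the nuclear pore. The other sets compared were 2 pairs labelled young control, one with titles that name virgin (DcrVirgin and VIRGIN) and one with titles that name NGVP16, and every library was labelled as dissected 1 to 3 days post-eclosion. The driver of the knockdowns and the genotype of each control were not given in the labels. The adult control pair, with 471770 and 682565 counts in all, was left out by the rule that chose the genes. The labels do not say whether the 2 libraries of a set had separate animals or cultures behind them. All p-values are therefore relative to a spread between libraries that may be technical.

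Total counts in the 10 libraries ran from 7351948 to 20162235. The NGVP16 pair differed most within itself: cytoplasmic ribosomal protein genes took 24.7% of the counts in its replicate 1 and 9.69% in its replicate 2. Nup154 fell in the libraries labelled Nup154 GKD against the NGVP16 pair (log2 fold change -1.28 ± 0.31 SE, edgeR quasi-likelihood test, Benjamini-Hochberg adjusted p = 0.0121), and it fell in wde GKD too (-1.02 ± 0.31, adjusted p = 0.0308). Against the virgin pair Nup154 fell in all 3 knockdowns, at -1.36 in SETDB1 GKD (adjusted p = 0.0099), -1.51 in wde GKD (adjusted p = 0.00508) and -1.76 in Nup154 GKD (adjusted p = 0.00278), so its level does not single out the Nup154 GKD label. The gene egg was at -0.60 ± 0.32 in the libraries labelled SETDB1 GKD (adjusted p = 0.206) and wde at -0.15 ± 0.46 in those labelled wde GKD (adjusted p = 0.81), so the own transcripts of these sets did not bear out their labels there. Against the virgin pair egg fell by 1.01 on the log2 scale in SETDB1 GKD (adjusted p = 0.0404), and wde was at -0.11 in wde GKD (adjusted p = 0.861). The knockdown names below mean the libraries so labelled.

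Markers of the ovary and of other cells moved with the sets. The labelled tissue was checked against germline genes: 11 of 12 listed were found in the count tables, all 11 had counts in every library, and together they took 0.217% to 0.329% of the counts in the knockdowns, against 0.408% to 0.719% in the young controls. Late oocyte and maternal genes such as osk and bcd took 0.0454% to 0.088%, against 0.612% to 0.868%, with BicC at 0 in the 6 knockdown libraries and in NGVP16 replicate 1. Within this list grk rose in Nup154 GKD against the NGVP16 pair (0.85 ± 0.22, adjusted p = 0.0177), named after its value was seen. In the 3 knockdowns against both young control sets, grk (0.17) and stau (-0.41) did not pass the test. Eggshell genes took 0.0209% to 0.186%, against 0.538% to 1.21%, and 5 of the 16 were at 0 in wde GKD replicate 1 and 1 of the 16 in wde GKD replicate 2. The ends of the knockdown range were both wde GKD libraries, at 0.0209% in replicate 1 and 0.186% in replicate 2. Follicle cell genes took 0.362% and 0.734% of the counts in these replicates. Muscle sheath genes, all 11 of which rose in the 3 knockdowns set together against both young control sets, took 2.08% to 2.73% of the counts in the knockdowns, against 0.279% to 0.439% in the young controls. Hemocyte genes, all 7 of which rose, took 0.135% to 0.363%, against 0.013% to 0.0262%. Of the other marker lists, 4 of 9 early germ cell genes rose and 2 fell, 4 of 5 germarium niche genes rose, 5 of 10 follicle cell genes rose and 3 fell, and 3 of 7 fat body genes rose, where 32.2% of all tested genes rose and 24.9% fell. The fat body genes differed between the knockdowns: against the NGVP16 pair 1 of the 7 rose in SETDB1 GKD and 1 in wde GKD, where 24.1% and 35.5% of all genes changed either way. In Nup154 GKD 3 of the 7 fell, beside 16.1% of all genes, namely Fbp1, Fbp2 and Lsp1gamma (-7.67, -6.47 and -6.51), named after their values were seen. In the virgin against the NGVP16 pair these 3 were at -4.52, -4.36 and -2.34, and Fbp1 alone of them passed the test (adjusted p = 0.0328). Fat body genes took 0.0251% and 0.0235% of the counts in Nup154 GKD, 0.00302% and 0.00934% in the virgin pair and 0.023% and 0.0347% in the NGVP16 pair. The part of these shifts in the results that follow was not tested. In whole ovaries, fewer cells of a type and less RNA per cell cannot be told apart.

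Of the 10 genes, 9 had lower mRNA levels in the knockdown ovaries and sra stood apart. In each knockdown plu, Mos and mtrm, with log2 fold changes of -3.43 to -4.94 against the NGVP16 pair, were below the other genes. CycB and gnu followed at -2.52 to -3.15, and png, twe, CycB3 and polo were at -0.66 to -2.57. Of the 10 genes, 7 fell in SETDB1 GKD, where 9.51% of all tested genes fell and 24.1% changed either way. In wde GKD 9 of the 10 fell, against 14.2% of all genes that fell and 35.5% that changed. In Nup154 GKD 9 of the 10 fell, against 16.1% and 37.0% of all genes. None of the 10 rose in any of the 3 comparisons. The median log2 fold change of the 10 genes was -2.08 for SETDB1, -2.80 for wde and -2.65 for Nup154 GKD, where all tested genes had medians of 0.11, 0.15 and 0.12. These 3 comparisons share the NGVP16 libraries and are not independent of one another. Against the virgin pair, 9 of the 10 fell in each knockdown, where 13.2% of all genes fell for SETDB1, 17.0% for wde and 16.2% for Nup154 GKD.

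**Figure D1:**
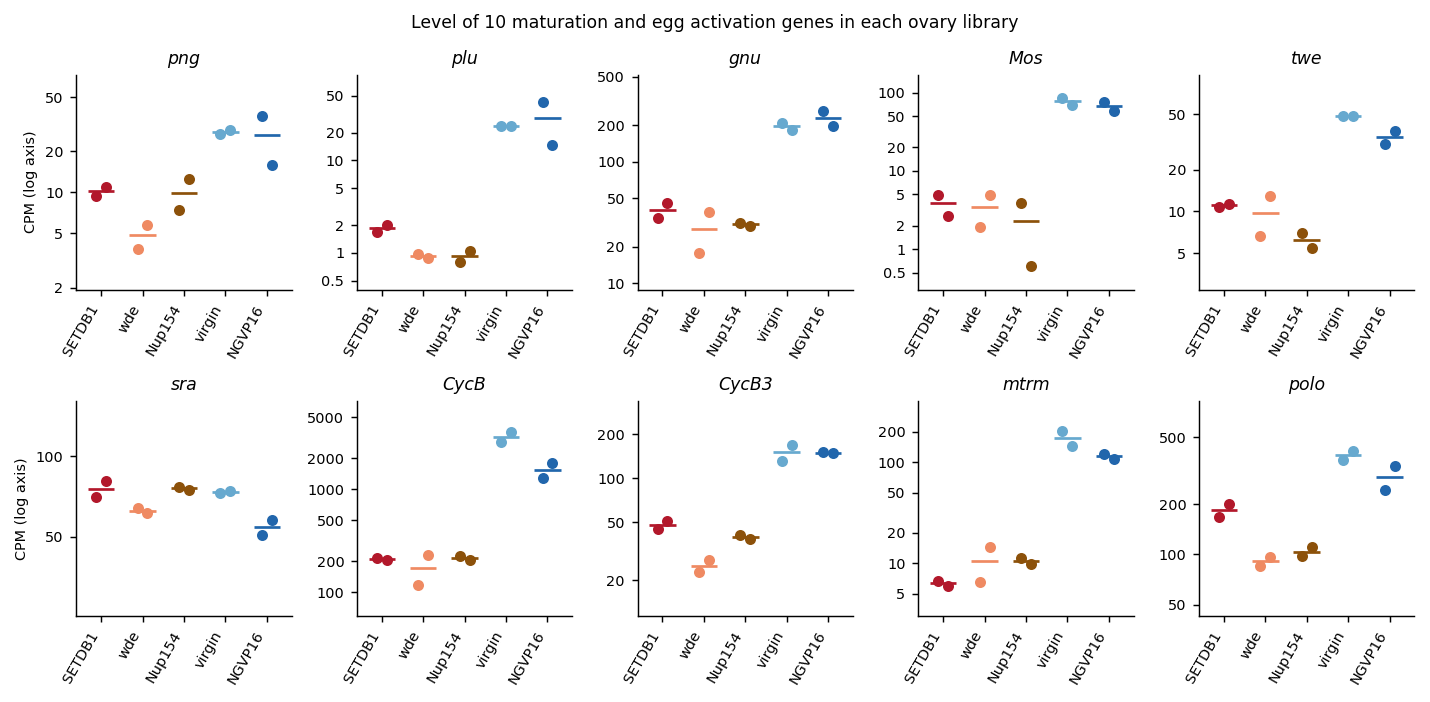
Level of each gene in CPM (log axis) in the 10 libraries; each point is a library, the short line is the mean of the set (n = 2), and the sets are SETDB1, wde and Nup154 GKD, then the virgin and NGVP16 young controls. All 6 knockdown libraries lie below all 4 young control libraries for 9 genes, and sra runs from 61.2 to 80.6 CPM in the knockdowns and from 50.7 to 74.1 CPM in the young controls.

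With the 3 knockdowns set together against both young control sets, the same 9 genes fell: their 6 knockdown libraries all lay below the 4 control libraries, as the plot of levels by library shows. Over all tested genes 24.9% fell, 32.2% rose and 57.1% changed in that comparison, and 13.9% had all 6 knockdown libraries below all 4 controls. Their log2 fold changes ran from -4.54 ± 0.45 for Mos, -4.46 ± 0.34 for plu and -3.98 ± 0.24 for mtrm through -3.50 ± 0.24 for CycB, -2.70 ± 0.24 for gnu, -2.21 ± 0.21 for twe and -2.04 ± 0.15 for CycB3 to -1.77 ± 0.29 for png and -1.48 ± 0.16 for polo. The adjusted p of these 9 lay between 8.25e-06 and 0.000999. The median of the 10 genes was -2.46, against 0.12 for all tested genes. The count was 9 with any 1 of the 10 libraries left out. Counts of the 10 genes together made up 0.0331% to 0.0648% of a knockdown library and 0.222% to 0.456% of a young control library.

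The PNG kinase genes come first. PNG is a kinase built from the catalytic subunit encoded by png (FBgn0000826, chromosome X, 1356488 to 1357601, 1 exon), the small activating subunit of plu (FBgn0003114, chromosome 2R, 20262958 to 20263684) and the activating subunit encoded by gnu (FBgn0001120, chromosome 3L, 14802380 to 14803360). Positions are those of the Ensembl annotation of BDGP6, the dm6 assembly. Levels below are CPM, a gene's counts scaled to the size of the library with TMM factors, in the order of the replicates.

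In SETDB1 GKD plu had 1.70 and 2.01 CPM, in wde GKD 0.968 and 0.886, and in Nup154 GKD 0.800 and 1.04, against 23.4 and 23.5 CPM in the virgin pair and 42.6 and 14.6 in the NGVP16 pair. Every knockdown library was far below every control, and the NGVP16 replicates differed from each other more than the knockdowns did among themselves. Its log2 fold change against the NGVP16 pair was -3.94 ± 0.55 in SETDB1 GKD (adjusted p = 0.00178), -4.93 ± 0.59 in wde GKD (adjusted p = 0.000709) and -4.94 ± 0.59 in Nup154 GKD (adjusted p = 0.000546). The knockdown levels rest on few reads, with 9 to 26 counts of plu per library.

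Of the 3, gnu had the highest level per length (TPM) in every set. It had 34.4 and 46.0 CPM in SETDB1 GKD, 17.7 and 38.7 in wde GKD and 31.1 and 29.8 in Nup154 GKD, against 211 and 181 CPM in the virgin pair and 262 and 198 in the NGVP16 pair. All knockdown libraries were below all controls, while wde GKD overlapped both other knockdown sets, and wde GKD replicate 1 was the lowest library. The change was -2.52 ± 0.38 in SETDB1 GKD (adjusted p = 0.00262), -3.03 ± 0.39 in wde GKD (adjusted p = 0.00093) and -2.91 ± 0.39 in Nup154 GKD (adjusted p = 0.000876).

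The catalytic subunit gene png fell least of the 3. SETDB1 GKD had 9.48 and 10.9 CPM, wde GKD 3.87 and 5.81, and Nup154 GKD 7.37 and 12.6, against 26.8 and 28.6 CPM in the virgin pair and 36.6 and 15.8 in the NGVP16 pair. NGVP16 replicate 2 came close to Nup154 GKD replicate 2. In SETDB1 GKD png was at -1.36 ± 0.46 and did not pass the test against the NGVP16 pair (adjusted p = 0.0602), while it fell by 1.44 against the virgin pair (adjusted p = 0.038). It fell in the others, at -2.43 ± 0.48 in wde GKD (adjusted p = 0.00579) and -1.39 ± 0.46 in Nup154 GKD (adjusted p = 0.0418). Single libraries decided these calls: without NGVP16 replicate 2 png was at -1.84 in SETDB1 GKD (adjusted p = 0.00652), and without wde GKD replicate 1 it was at -2.16 in wde GKD (adjusted p = 0.0551). In Nup154 GKD it no longer passed the test without NGVP16 replicate 1 (-0.82, adjusted p = 0.161), without Nup154 GKD replicate 1 (-1.06, adjusted p = 0.234) or replicate 2 (-1.82, adjusted p = 0.076), or without either wde GKD replicate or SETDB1 GKD replicate 1 (adjusted p = 0.0528 to 0.0568). Over all alternative settings the adjusted p of png ran from 0.00652 to 0.479 in SETDB1 GKD, from 2.42e-05 to 0.187 in wde GKD and from 0.00482 to 0.534 in Nup154 GKD.

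The 3 PNG genes had unequal changes. Within a library, the ratio of gnu to png counts does not depend on how libraries are scaled. Its log2 value was 2.02 ± 0.481 in the knockdowns (SD, n = 6) and 3.03 ± 0.429 in the young controls (SD, n = 4), a difference of -1.005 (2-sided exact permutation test, p = 0.019, adjusted p = 0.0254 over the 4 ratios tested). The exact tests of ratios exchange single libraries, and where the 2 libraries of a set are not independent their p-values are too small. The ranges met, at 1.243 to 2.73 in the knockdowns and 2.66 to 3.64 in the young controls. Leaving out NGVP16 replicate 1, NGVP16 replicate 2 or virgin replicate 1 gave differences of -1.07, -0.80 and -1.02 with an exact adjusted p of 0.0635 each (0.0159 to 0.19 over all alternatives).

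Mos and the meiotic Cdc25 gene followed. Mos (FBgn0033773, chromosome 2R, 12751483 to 12752936) encodes a kinase that feeds the MAP kinase cascade in the oocyte. It had 4.97 and 2.68 CPM in SETDB1 GKD, 1.94 and 4.92 in wde GKD and 3.91 and 0.607 in Nup154 GKD, against 85.0 and 69.4 CPM in the virgin pair and 76.4 and 58.7 in the NGVP16 pair. All 6 knockdown libraries were more than 10-fold below the lowest control. The low level of Nup154 GKD replicate 2 came from 7 counts. Mos fell in each, with a log2 fold change of -4.13 ± 0.74 in SETDB1 GKD (adjusted p = 0.0054), -4.30 ± 0.75 in wde GKD (adjusted p = 0.00361) and -4.90 ± 0.78 in Nup154 GKD (adjusted p = 0.00195), the widest standard errors of the 10 genes.

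Of the 6 genes listed for the MAP kinase cascade downstream of and beside Mos, 5 were found in the count tables and tested. Of these, Dsor1, the MAP kinase kinase gene (-0.82 ± 0.16, adjusted p = 0.00297), and Raf, the gene of the kinase above it (-0.65 ± 0.15, adjusted p = 0.00594), fell with the 3 knockdowns set together against both young control sets, and none rose. The median of the 5 was -0.41, and none of the 5 passed the test in a single knockdown. Scaling to general germline genes raises the values of all genes together, so that 67.4% of all tested genes were called higher and 2.29% lower. On that scale 4 of the 5 were called higher and none lower, a share near that of all genes, and none passed the test with ribosomal protein scaling or with the NGVP16 pair as the only control. Ribosomal protein scaling called 31.3% of all tested genes higher and 5.25% lower.

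The gene twe (FBgn0002673, chromosome 2L, 16259414 to 16261877) had 10.8 and 11.4 CPM in SETDB1 GKD, 6.68 and 12.9 in wde GKD and 6.93 and 5.46 in Nup154 GKD, against 48.3 in each virgin library and 30.4 and 37.8 CPM in the NGVP16 pair. All knockdown libraries were lower than all controls. It fell in each, with a log2 fold change of -1.62 ± 0.34 in SETDB1 GKD (adjusted p = 0.0106), -1.80 ± 0.34 in wde GKD (adjusted p = 0.00505) and -2.46 ± 0.35 in Nup154 GKD (adjusted p = 0.00123). Without SETDB1 GKD replicate 1 its change in SETDB1 GKD was -1.59 and missed the threshold (adjusted p = 0.075, 0.000139 to 0.235 over all alternatives). Exons of twe and EndoGI overlap on opposite strands over 98 bases, and 63 bases of Mos overlap CG42663, also on the opposite strand. The strand setting of the counting is not given in the sources used here, so reads in those stretches cannot be assigned.

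The mitotic Cdc25 gene, stg, was measured beside twe. Its level was 96.1 and 159 CPM in SETDB1 GKD, 70.8 and 66.5 in wde GKD and 71.3 and 70.7 in Nup154 GKD, against 275 and 374 CPM in the virgin pair and 176 and 290 in the NGVP16 pair. Both Cdc25 genes thus had lower levels in all 6 knockdown libraries than in the 4 controls. The log2 ratio of twe to stg counts was -3.29 ± 0.511 in the knockdowns (SD, n = 6) and -2.73 ± 0.246 in the young controls (SD, n = 4), a difference of -0.56 that did not pass the test (exact permutation test, p = 0.0762, adjusted p = 0.0762). Without wde GKD replicate 2, whose ratio was the highest of all 10 libraries, the difference was -0.74 (exact adjusted p = 0.0159, 0.0159 to 0.214 over all alternatives).

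The calcineurin regulator gene sra (FBgn0086370, chromosome 3R, 16186999 to 16197584) was the one that passed the test in none of the comparisons with the controls. It encodes Sarah, a calcipressin needed for egg activation. It had 70.2 and 80.6 CPM in SETDB1 GKD, 64.1 and 61.2 in wde GKD and 77.1 and 75.1 in Nup154 GKD, against 72.7 and 74.1 CPM in the virgin pair and 50.7 and 57.9 in the NGVP16 pair. Every knockdown library was above the NGVP16 pair, and the virgin pair lay among the knockdowns. The log2 fold change against the NGVP16 pair was 0.47 ± 0.21 in SETDB1 GKD (adjusted p = 0.125), 0.21 ± 0.21 in wde GKD (adjusted p = 0.449) and 0.49 ± 0.21 in Nup154 GKD (adjusted p = 0.0934), and none passed the test. The 3 knockdowns against both control sets gave 0.17 ± 0.13 (adjusted p = 0.292). Without NGVP16 replicate 2, sra rose by 0.57 in SETDB1 GKD (adjusted p = 0.0492) and by 0.59 in Nup154 GKD (adjusted p = 0.0386). Over all alternatives the adjusted p ran from 0.012 to 0.896 in SETDB1 GKD and from 0.00567 to 0.853 in Nup154 GKD.

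Muscle sheath and hemocyte genes were higher in the same knockdown libraries, and their part in the level of sra was not tested. In addition 301 exon bases of sra, 12.7% of its exon length, overlap exons of Bin1 on the opposite strand. Among the other genes of the calcium and calcineurin branch, 9 of 10 listed were tested and 5 rose and 1 fell with the 3 knockdowns set together, where 32.2% and 24.9% of all genes rose and fell, and the median was 0.76. The risers included CanB (2.66 ± 0.55, adjusted p = 0.00342) and CanA1 (2.13 ± 0.48, adjusted p = 0.00502), a regulatory and a catalytic subunit of calcineurin, and Plc21C, a phospholipase C (1.21 ± 0.24, adjusted p = 0.00284). Neither CanB (2.01, 0.59 and 0.40) nor CanA1 (1.39, 1.77 and 1.73) passed the test in SETDB1, wde or Nup154 GKD against the NGVP16 pair. Between the control pairs, CanB was at -3.33 ± 0.88 in the virgin against the NGVP16 pair (adjusted p = 0.0997). With the 3 knockdowns set together, CanB2 was at 3.89e-05 ± 0.15 and did not pass the test, named after its value was seen. The catalytic subunit gene Pp2B-14D fell by 0.98 ± 0.15 (adjusted p = 0.00063), a gene named after its value was seen. By knockdown, against the NGVP16 pair, 0 of the 9 rose for SETDB1, 1 for wde and 3 for Nup154 GKD, and 1 fell in each. Of all tested genes 9.51%, 14.2% and 16.1% fell there, and 24.1%, 35.5% and 37.0% changed either way. Scaled to general germline genes, 8 of the 9 were called higher and none lower, where 67.4% and 2.29% of all tested genes were. With the NGVP16 pair as the only control, 2 of the 9 rose and 1 fell. Over all alternatives of the joint comparison, 3696 to 7040 of all tested genes were called either way.

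Of the cyclin genes, CycB (FBgn0000405, chromosome 2R, 22803521 to 22806948) encodes a B-type partner of Cdk1. Its level was 214 and 204 CPM in SETDB1 GKD, 117 and 229 in wde GKD and 222 and 204 in Nup154 GKD, against 2878 and 3612 CPM in the virgin pair and 1287 and 1788 in the NGVP16 pair. The 6 knockdown libraries were all several-fold below the lowest control, and the virgin pair was above the NGVP16 pair. CycB fell in each, with a log2 fold change of -2.88 ± 0.39 in SETDB1 GKD (adjusted p = 0.00144), -3.15 ± 0.39 in wde GKD (adjusted p = 0.000787) and -2.85 ± 0.39 in Nup154 GKD (adjusted p = 0.000933). It gave 33.1% to 46.5% of the counts of the 10 genes in the knockdown libraries and 55.9% to 75.8% in the young control libraries.

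CycB3 (FBgn0015625, chromosome 3R, 24867934 to 24870816) encodes a B-type cyclin that promotes anaphase in female meiosis. It had 44.8 and 51.3 CPM in SETDB1 GKD, 22.8 and 27.4 in wde GKD and 41.0 and 38.6 in Nup154 GKD, against 131 and 169 CPM in the virgin pair and 151 and 148 in the NGVP16 pair. Knockdowns and controls were well apart, with wde GKD the lowest. CycB3 fell in each, with a log2 fold change of -1.64 ± 0.24 in SETDB1 GKD (adjusted p = 0.00204), -2.57 ± 0.24 in wde GKD (adjusted p = 0.000302) and -1.91 ± 0.24 in Nup154 GKD (adjusted p = 0.000652).

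Since CycB fell more than CycB3, their balance differed between knockdown and control ovaries. The log2 ratio of CycB3 to CycB counts was -2.42 ± 0.355 in the knockdowns (SD, n = 6) and -3.89 ± 0.665 in the young controls (SD, n = 4). It was higher in 6 of 6 knockdown libraries than in any of the 4 controls, by 1.47 on average (exact permutation test, p = 0.00952, the smallest these libraries allow, adjusted p = 0.019). As a plain count ratio, CycB3 was at 0.230 ± 0.0301 of CycB in SETDB1 GKD, at 0.157 ± 0.0531 in wde GKD and at 0.187 ± 0.00326 in Nup154 GKD, against 0.0462 ± 0.000904 in the virgin pair and 0.100 ± 0.0248 in the NGVP16 pair (SD, n = 2). The lowest knockdown and the highest control library nearly touched, at 0.119 in wde GKD replicate 2 and 0.118 in NGVP16 replicate 1.

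The last pair was Polo and its inhibitor. The gene mtrm (FBgn0010431, chromosome 3L, 8413012 to 8414103, 1 exon) encodes Matrimony, which binds Polo, and lies within the span of Exo70 on the same strand without sharing exon bases. It had 6.73 and 6.02 CPM in SETDB1 GKD, 6.48 and 14.6 in wde GKD and 11.3 and 9.88 in Nup154 GKD, against 203 and 145 CPM in the virgin pair and 121 and 108 in the NGVP16 pair. SETDB1 GKD held the lowest set mean, and the controls were all far above the knockdowns. The change was -4.16 ± 0.40 in SETDB1 GKD (adjusted p = 0.000548), -3.44 ± 0.39 in wde GKD (adjusted p = 0.000596) and -3.43 ± 0.39 in Nup154 GKD (adjusted p = 0.000438).

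The kinase gene polo (FBgn0003124, chromosome 3L, 20309654 to 20313466) had 168 and 201 CPM in SETDB1 GKD, 85.9 and 96.9 in wde GKD and 97.3 and 111 in Nup154 GKD, against 367 and 414 CPM in the virgin pair and 243 and 338 in the NGVP16 pair. SETDB1 GKD was the nearest of the knockdowns to the controls. In SETDB1 GKD polo was at -0.66 ± 0.26 and did not pass the test (adjusted p = 0.0977), but it fell there by 1.08 against the virgin pair (adjusted p = 0.0132) and by 0.95 without NGVP16 replicate 1 (adjusted p = 0.0108, 0.00297 to 0.748 over all alternatives). It fell in the others, at -1.67 ± 0.27 in wde GKD (adjusted p = 0.00239) and -1.48 ± 0.26 in Nup154 GKD (adjusted p = 0.00325).

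**Figure D2:**
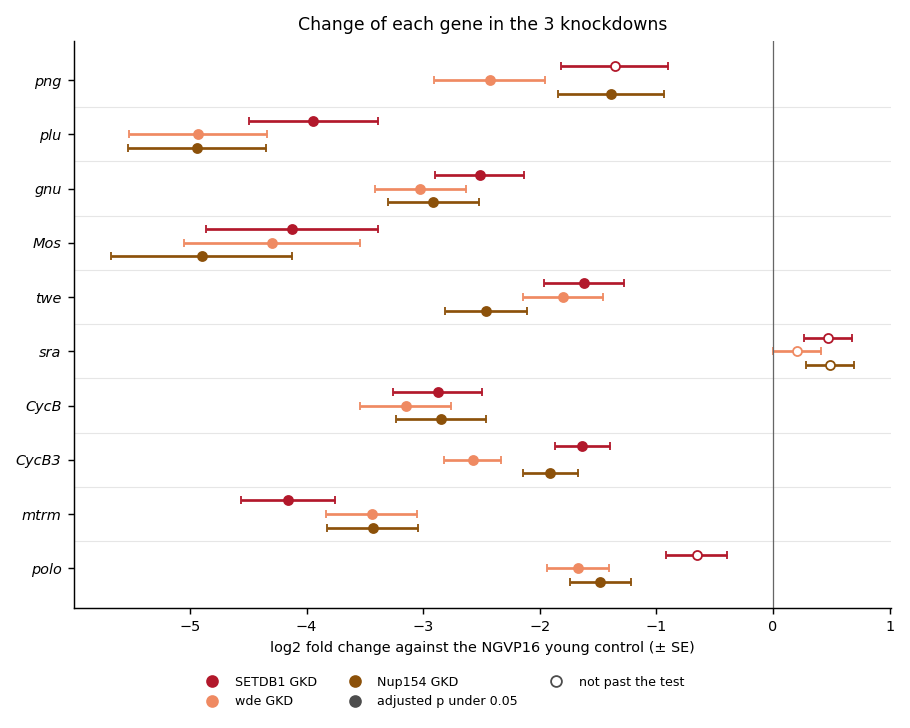
Log2 fold change of each gene against the NGVP16 young control with its SE from the edgeR quasi-likelihood fit, for SETDB1, wde and Nup154 GKD; filled points passed an adjusted p of 0.05 and open points did not. Only png and polo in SETDB1 GKD and sra in all 3 knockdowns are open, and the falls of plu, Mos and mtrm reach -3.43 to -4.94.

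The inhibitor transcript fell further than that of its kinase. The log2 ratio of mtrm to polo counts was -3.79 ± 0.894 in the knockdowns (SD, n = 6) and -1.25 ± 0.386 in the young controls (SD, n = 4). It was lower in 6 of 6 knockdown libraries than in any control, with a difference of -2.53 (exact permutation test, p = 0.00952, adjusted p = 0.019). There were 0.0350 ± 0.00719 mtrm counts per polo count in SETDB1, 0.113 ± 0.0529 in wde and 0.103 ± 0.019 in Nup154 GKD, against 0.453 ± 0.144 in the virgin pair and 0.409 ± 0.127 in the NGVP16 pair (SD, n = 2). The plot of count ratios shows both SETDB1 GKD libraries below those of the other knockdowns, a difference that was not tested.

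**Figure D3:**
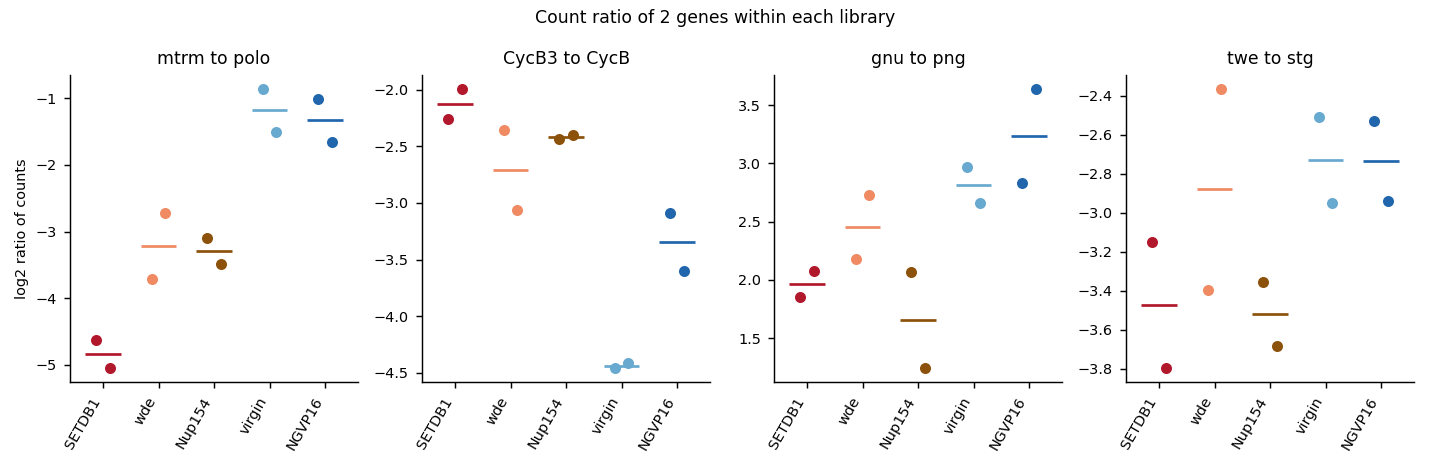
Log2 ratio of the raw counts of 2 genes in each library (points) with the mean of each set of 2 (lines), for mtrm to polo, CycB3 to CycB, gnu to png and twe to stg. The knockdowns lie below all controls for mtrm to polo and above all of them for CycB3 to CycB, and they meet or overlap the controls in the other panels.

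Per length, the 10 genes changed rank as well as level. In TPM, which scales counts to exon length and to the library, SETDB1 GKD had CycB at 153 ± 15.0, polo at 137 ± 8.87, gnu at 96.1 ± 13.6 and sra at 70.4 ± 2.43 (SD, n = 2). The order of these 4 was the same in wde GKD, where gnu (65.1 ± 32.0) did not differ beyond its spread from polo (65.9 ± 2.99) or sra (56.9 ± 4.10) and both polo libraries were above both sra libraries, and in Nup154 GKD, where the 3 lay between 67.5 ± 1.61 and 73.4 ± 6.37. By set mean, the lowest levels in each knockdown were those of plu and Mos, at 3.14 to 6.66 TPM. In Nup154 GKD twe (5.48 ± 0.949) and Mos (3.55 ± 3.68) did not differ beyond their spread. In the NGVP16 pair CycB was the highest at 1016 ± 573 TPM and gnu at 464 ± 76.8, followed by mtrm at 200 ± 55.6 and polo at 196 ± 111, which were within each other's spread. CycB3 (100 ± 34.0), Mos (94.2 ± 16.7) and plu (78.8 ± 29.9) came next and did not differ beyond their spread, and sra (45.0 ± 19.9), png (40.9 ± 9.34) and twe (28.5 ± 14.2) came last. The virgin pair had the same leading genes, with CycB at 2013 ± 499 TPM. By mean TPM, sra was the fourth in each knockdown and the eighth in both young control pairs.

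Between the knockdowns no gene of the 10 passed the test. SETDB1 GKD against Nup154 GKD had 3.68% of all tested genes changed and 0 of the 10. At an unadjusted p under 0.05 there were 2247 of the 10105 tested genes and 2 of the 10. These 2 were twe at 0.84 ± 0.34 (adjusted p = 0.193) and polo at 0.83 ± 0.26 (adjusted p = 0.116), both higher in SETDB1 GKD. SETDB1 GKD against wde GKD had 0.287% of all genes changed and 0 of the 10, with png (1.07 ± 0.46), CycB3 (0.94 ± 0.23) and polo (1.01 ± 0.26) at an unadjusted p under 0.05 and adjusted p of 0.352, 0.138 and 0.143. Of all 10105 tested genes 1392 had such an unadjusted p. DESeq2 called 566 of all tested genes in that comparison, among them CycB3 and polo (adjusted p = 0.0197 and 0.0077). It also called polo in SETDB1 GKD against Nup154 GKD (adjusted p = 0.0142). Over all alternatives the adjusted p of polo ran from 0.0077 to 0.952 against wde GKD and from 0.0127 to 0.685 against Nup154 GKD, and that of CycB3 against wde GKD from 0.0197 to 0.932. In wde GKD against Nup154 GKD 1.42% of all genes changed and 0 of the 10, with CycB3 alone of the 10 at an unadjusted p under 0.05 (-0.66 ± 0.23, adjusted p = 0.184), and DESeq2 called 0 of the 10. Of all 10105 tested genes 1829 had an unadjusted p under 0.05 there. A p that misses the threshold does not show that the knockdowns act alike on these genes. Among related genes, Wee1, the Cdk1-inhibiting kinase, was lower in SETDB1 GKD than in Nup154 GKD (-0.98 ± 0.22, adjusted p = 0.0493).

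The control pairs were compared in the same way. In the virgin pair against the NGVP16 pair 1.64% of all tested genes changed and 0 of the 10. Of the 10, CycB alone had an unadjusted p under 0.05, at 1.08 ± 0.36 (adjusted p = 0.17), and DESeq2 called 0 of the 10. Of all 10105 tested genes 1842 had an unadjusted p under 0.05. Without NGVP16 replicate 2 the CycB difference was 1.34 and passed (adjusted p = 0.0377, 0.0377 to 0.861 over all alternatives). The sign for plu, at -0.29 ± 0.48 (adjusted p = 0.791), depended on NGVP16 replicate 1, without which it was 0.61.

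The falls were then set against the change of a list of general germline genes. General germline genes, a list with aub, AGO3, ovo and nanos, had a median log2 fold change of -1.47 with 8 of 11 lower and none higher. The 11 ran from -3.67 for otu to 0.83 for tud, and spn-E (0.19), armi (0.55) and tud did not pass the test. When libraries were scaled by the median of these 11 genes instead of by all genes, a change became relative to these 11 listed genes. All tested genes then had a median of 1.40, with 6809 higher and 231 lower, where the scaling over all genes gave 3250 higher and 2517 lower. Scaling to ribosomal protein genes put that median at 0.60, with 3165 higher and 531 lower, and 8 of the 10 genes fell. On the germline scale 7 of the 10 genes fell and 1 rose. Mos was at -3.33 (adjusted p = 5.17e-05), plu at -3.26, mtrm at -2.76, CycB at -2.24 and gnu at -1.49, while twe (-0.96, adjusted p = 0.00927) and CycB3 (-0.78, adjusted p = 0.00971) kept smaller falls. png was at -0.57 (adjusted p = 0.201) and polo at -0.19 (adjusted p = 0.438), no longer past the test, and sra rose by 1.46 (adjusted p = 0.000222). Late oocyte and maternal genes fell furthest of the germline lists on the scale of all genes, with a median of -3.52 and 8 of 10 lower.

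**Figure D4:**
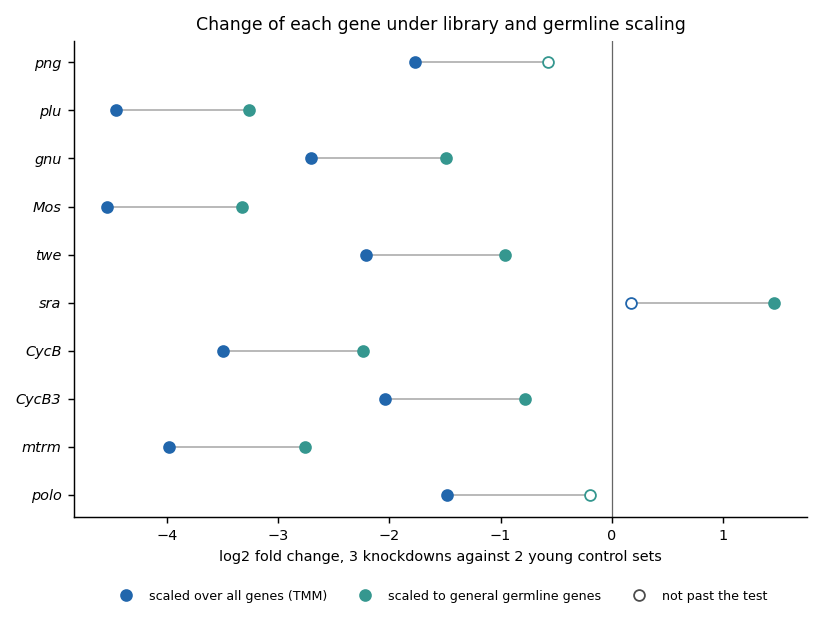
Log2 fold change of the 3 knockdowns against the 2 young control sets for each gene, scaled over all genes (TMM, blue) and scaled to 11 general germline genes (green); open points did not pass an adjusted p of 0.05. plu, Mos, mtrm and CycB stay below -2 on both scales, polo moves to -0.19 and sra to 1.46.

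Genes that act with these 10 were read from lists of known roles. Among 12 Cdk1 regulators 9 fell and 0 rose with the 3 knockdowns set together (median -0.89), where 24.9% and 32.2% of all tested genes fell and rose. The list was led by cort, a meiosis-specific activator of the anaphase-promoting complex (-2.85 ± 0.30, adjusted p = 8.74e-05), CycA (-2.70 ± 0.25, adjusted p = 5.07e-05) and stg (-1.69 ± 0.22, adjusted p = 0.00027). Against the NGVP16 pair 4 of the 12 fell for SETDB1, 8 for wde and 6 for Nup154 GKD, where 1 rose, beside 9.51%, 14.2% and 16.1% of all genes lower. Scaled to germline genes 2 of the 12 were called lower and 4 higher (2.29% and 67.4% of all genes), and scaled to ribosomal protein genes 4 were lower (5.25% of all genes).

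Among 12 Greatwall, PP2A and Polo partners 5 fell and 1 rose (median -0.33), where 24.9% and 32.2% of all tested genes did. The gene of the Greatwall kinase, gwl, whose pathway restrains a PP2A phosphatase, fell by 3.26 ± 0.22 (adjusted p = 1.25e-05). The Aurora A gene aurA fell by 1.19 ± 0.15 (adjusted p = 0.000258), and borr, which encodes the Borealin subunit of the chromosomal passenger complex, fell by 1.05 ± 0.18 (adjusted p = 0.00141). The riser was Map205, whose protein binds Polo on microtubules (0.74 ± 0.26, adjusted p = 0.0401), named after its value was seen. With the NGVP16 pair as the only control 3 of the 12 fell and 0 rose, and with ribosomal protein scaling 1 was lower (5.25% of all genes). The joint comparison called 3696 to 7040 of all tested genes over all alternatives. Scaled to germline genes 8 of the 12 were called higher and 1 lower, the first near the 67.4% of all genes that were higher.

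Of 12 listed regulators of maternal mRNA translation, the process that PNG kinase acts on, 10 were tested, 9 fell and 0 rose, with a median of -2.31, where 24.9% of all tested genes fell. smg, a translational repressor (-3.31 ± 0.33, adjusted p = 6.54e-05), wisp, a cytoplasmic poly(A) polymerase (-3.28 ± 0.36, adjusted p = 0.000111), and me31B, an RNA helicase (-2.84 ± 0.22, adjusted p = 2.22e-05), led the list. Against the NGVP16 pair 6 of the 10 fell in each knockdown and 0 rose, beside 9.51% of all genes lower for SETDB1, 14.2% for wde and 16.1% for Nup154 GKD. Scaled to germline genes 6 of the 10 were called lower and 2 higher (2.29% and 67.4% of all genes), and me31B is itself one of those germline genes. Of 10 meiotic spindle genes 5 fell and 2 rose (median -0.52), where 24.9% and 32.2% of all tested genes did, with alphaTub67C, a maternal alpha-tubulin gene, at -3.74 ± 0.28 (adjusted p = 1.85e-05) and the kinesin-like gene nod at -2.41 ± 0.18 (adjusted p = 1.71e-05). The spindle count was 4 fallen and 0 risen without wde GKD replicate 2, Nup154 GKD replicate 2 or virgin replicate 1, and 2 fallen with ribosomal protein scaling. With ribosomal protein scaling 5.25% of all genes were lower and 31.3% higher. Scaled to germline genes 2 of the 10 spindle genes were called lower and 5 higher (2.29% and 67.4% of all genes).

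**Figure D5:**
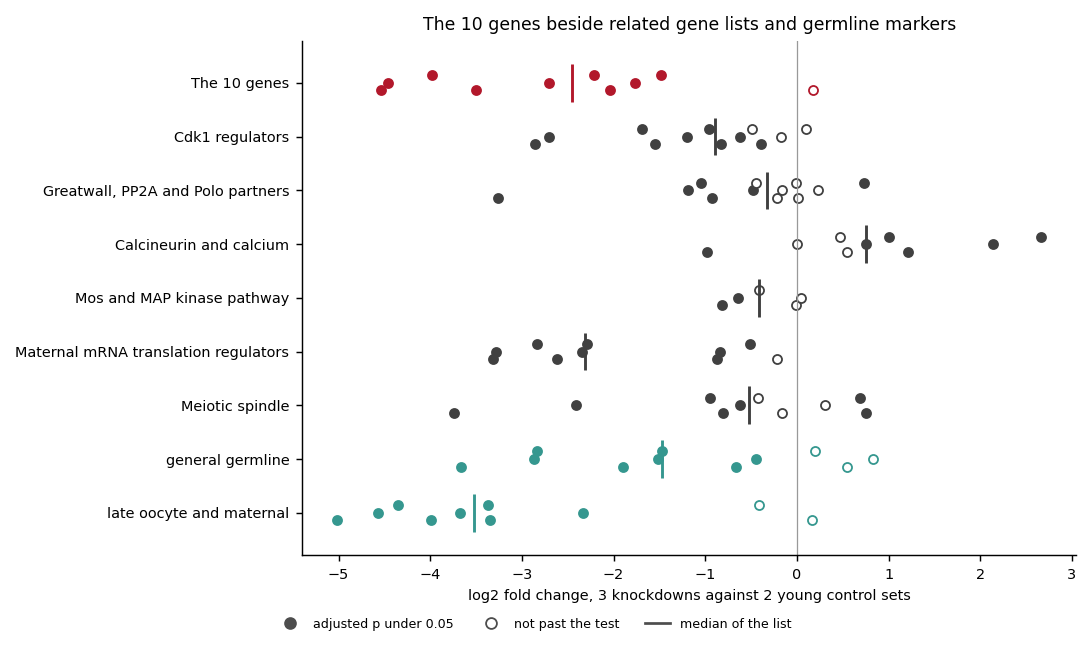
Log2 fold change of the 3 knockdowns against the 2 young control sets for each tested gene (points) of the 10 genes, 6 lists of related genes and 2 lists of germline markers; filled points passed an adjusted p of 0.05 and vertical lines are medians. The medians run from -3.52 for late oocyte and maternal genes and -2.46 for the 10 genes to 0.76 for the calcineurin and calcium list.

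Across the 10 libraries, 6 of which are knockdowns and share the shifts in germline, muscle and hemocyte genes, the log2 CPM of the 9 falling genes followed one another, with Pearson's r between 0.772 for png with Mos and 0.974 for CycB with mtrm. With sra, r ran from -0.436 to -0.0898. Outside the 10 genes, the named genes with the most similar levels were san and Nup50 for plu (0.991 and 0.985), Rcc1 and Art3 for gnu (0.998 and 0.991), and Tango4 and msd5 for png (0.978 and 0.968). For Mos they were PolD1 and ArgRS (0.976 and 0.969), and for twe PolD1 and lost (0.990 and 0.988). For CycB they were Pxt and Miga (0.995 and 0.993), for CycB3 mael and CycJ (0.989 and 0.988), for mtrm ras and Nmd3 (0.994 and 0.993), and for polo stg and Marf1 (0.983 and 0.980). For sra they were Hsp27 (0.968) and arm (0.951). These values describe 10 libraries of 2 kinds and carry no test.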

How the data were processed

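Poly(A) RNA of fly ovaries had been sequenced in 12 libraries, and the deposited files hold raw counts per FlyBase gene, 1 file per library. The submitters' processing notes list HISAT2 2.1.0, featureCounts 1.4.6, DESeq2 1.24.0 and build dm6, with no role or order, while the strand setting of the counting is not stated there. Gene names and positions came from Ensembl release 115 (BDGP6), which named 16647 of the 17023 identifiers.

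Counts of 10 libraries were filtered (filterByExpr), scaled by TMM and fitted in edgeR 4.0.16 (R 4.3.3) with 1 mean per set and 5 residual degrees of freedom. Quasi-likelihood tests were adjusted by Benjamini-Hochberg over all 10105 genes, at a threshold of 0.05. Standard errors of log2 fold changes are approximate. The main control was the NGVP16 pair, and a further contrast set the mean of the 3 knockdown sets against the mean of the 2 young control sets. TPM used exon lengths. Count ratios had a pseudocount of 0.5 and a 2-sided exact permutation test over 210 splits (scipy 1.17.1), adjusted over 4 ratios. The splits treat libraries as independent, although they come in sets of 2 that may be technical repeats, so these p-values may be too small. Correlations used log2 CPM with a prior count of 1.

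Depth ran from 7351948 to 20162235 counts in the 10 libraries, which limits the precision of the low genes. A library with 0 counts of a gene allows up to 3 counts, and such limits cover counting error only. Named genes were the 10 genes, the targeted genes, up to 3 called genes per list with the largest change, and for each of the 10 genes the 2 most similar named genes. The genes, lists and tests were chosen with earlier results of these data known. Replicates of every set differed by more than sampling noise, and their numbers were not taken to pair samples across sets. Alternatives were other scalings, no filter, DESeq2 1.42.0, other library subsets, removal of a gene length trend, and each library left out. The procedure was tested on simulated counts. No sequence is shown, and the adult control pair entered no test but 1 alternative with all 12 libraries.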

Additional observations from a re-analysis of the deposited data

Results flagged for a closer look

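CycB stood out in wde GKD replicate 1, where its log2 CPM of 6.88 was the lowest of the 6 knockdown libraries and lay far from the others for the spread of the group. The gap to the next library was 0.826 of the whole range, against a critical value of 0.625 for 6 libraries. Among groups checked this way, chance gives such a gap in about 1 of 20. The check covered the levels of the 10 genes and the 4 count ratios, each in the 6 knockdown and the 4 young control libraries. This was the only gap past its critical value, no more than chance gives over that many groups. The 6 knockdown libraries also pool 3 different knockdowns. In wde GKD replicate 1 gnu, png, CycB3 and polo had their lowest levels of the 10 libraries too, and 5 of 16 eggshell genes were at 0.

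In the adult control pair, which entered no comparison of the report, twe was at 80.5 and 63.0 CPM of the total counts, from 38 and 43 counts, against 29.3 to 46.2 in the young control libraries. In the same pair gnu, CycB, CycB3 and mtrm had 0 counts in both libraries, which allows up to 6.36 and 4.40 CPM, and polo had 1 and 0 counts. The pair was labelled as ovaries with the same dissection time as the other sets, and the cause of these values was not tested.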

How the results depend on the processing

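The number of the 10 genes past the test ran from 5 to 9 in SETDB1 GKD, 7 to 9 in wde GKD and 6 to 10 in Nup154 GKD against the NGVP16 pair, and from 8 to 9 for the 3 knockdowns against both controls, over all alternatives. SETDB1 against Nup154 GKD called 0 of the 10 in the report and 1 with DESeq2, with only the groups compared and with the gene length trend removed (0 to 1 with a library left out). SETDB1 against wde GKD called 0 in the report and 2 with DESeq2 or the length trend removed (0 to 2 with a library left out), and the virgin pair against the NGVP16 pair called 0 to 1 with a library left out. Among all tested genes, SETDB1 against Nup154 GKD called 372 in the report and 2268 with only the groups compared. SETDB1 against wde GKD called 29 of all tested genes in the report and 566 with DESeq2. Against the NGVP16 pair alone, mtrm to polo differed by -2.46, CycB3 to CycB by 0.92 and gnu to png by -1.22 (exact adjusted p = 0.0952 each). Against the virgin pair alone they differed by -2.61, 2.02 and -0.79 (exact adjusted p = 0.143, 0.143 and 0.19). Against 2 control libraries the exact test cannot pass the threshold. With a library left out, the differences ran from -2.74 to -2.28 for mtrm to polo, from 1.28 to 1.74 for CycB3 to CycB, from -1.14 to -0.80 for gnu to png and from -0.74 to -0.46 for twe to stg. Signs turned for polo with germline scaling (0.29 in SETDB1 GKD, 0.013 in wde GKD). They turned for sra in wde GKD with the length trend removed (-0.062), against the virgin pair (-0.23) and with a library left out (-0.0089 to 0.30). For sra in the 3 knockdowns together they turned with the length trend removed (-0.075) and against the virgin pair alone (-0.045), and for plu between the control pairs with the length trend removed (0.51) and with a library left out (-0.85 to 0.61). The causes were not tested. Of the single-gene values under alternatives, 1030 kept direction and side of the threshold, 30 newly passed, 29 no longer passed and 9 changed sign.

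Replicate numbers of the knockdown and NGVP16 sets gave correlations of deviations from -0.20 to 0.39, the highest between SETDB1 and wde GKD. They were not taken to pair libraries, which leaves a shared replicate effect in those sets open. A fit with the replicate number as a block called 7, 9 and 8 of the 10 genes in SETDB1, wde and Nup154 GKD, png in Nup154 GKD being the one lost (adjusted p = 0.0762), and 0 in each comparison between knockdowns. Over all tested genes the calls moved from 2438 to between 486 and 4289 in SETDB1 GKD, from 3588 to between 1521 and 6430 in wde GKD, from 3735 to between 1448 and 5072 in Nup154 GKD, and from 5767 to between 3696 and 7040 for the 3 knockdowns together. Between the knockdowns the calls were 372 (9 to 2268) for SETDB1 against Nup154 GKD, 143 (0 to 1979) for wde against Nup154 GKD and 29 (1 to 566) for SETDB1 against wde GKD, and between the control pairs 166 (0 to 2514). The fits with a single control pair in the joint comparison, and all alternatives for the lists, were added after seeing the data. The 9 to 26 counts of plu and 7 to 76 of Mos per knockdown library limit how finely their levels can be compared between knockdowns.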
